A study of Mus musculus with 12 samples.

Results

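The metabotropic glutamate receptors described here are the products of Grm2, Grm3, Grm4, Grm5, Grm7 and Grm8, 6 of the 35501 genes with a transcript in the deposited values. They were chosen by name, with no use of their levels, and every transcript that GENCODE vM21 assigns to them was taken, which gave 32 of 115270 transcripts. The hippocampal RNA of 12 adult C57BL/6 males (C57BL/6J in the methods of the study), at postnatal day 70, was sequenced, with 3 mice in each of 4 groups. Control mice (CC) had water-drinking dams and were left undisturbed, ethanol mice (EC) had dams offered 10% ethanol in water to drink at will during gestation, stress mice (CS) were isolated every day for 3 h over postnatal days 2 to 14, and ethanol + stress mice (ES) faced both. By the methods of the study, ethanol stayed available to the dams until after birth and part of each litter was drawn at random for separation. How the mice of a group relate by litter is not given in the sources used here, so the spread between replicates measures the mice as sampled.

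Glutamate acts on fast ion channels and, more slowly, on metabotropic receptors, which signal through G proteins. Group I receptors, such as Grm5, sit mainly on the postsynaptic side, couple to Gq and raise inositol phosphates and calcium. Group II (Grm2 and Grm3) and group III receptors (Grm4, Grm7 and Grm8) couple to Gi/o, lower cyclic AMP and act at many synapses as brakes on glutamate release, and Grm3 is also an astrocyte receptor. In the hippocampus, Grm5 is known for its part in long-term depression and potentiation, and the comparisons here ask how the RNA of this family stood in adult mice after each early exposure.

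Values are in TPM, a relative level per transcript corrected for its length and the depth of the library, which the authors made with kallisto and scaled between libraries. The libraries held about 12040000 to 14880000 read pairs, recovered from the step that separates low values. Their summed TPM ran from 889222 to 1173650, and EC2, ES2 and ES3 stood highest, at 1126490 or more, with 1024270 or less in the other 9. All 10 marker genes of hippocampal pyramidal and granule neurons were above 0 in every library, while the summed level of 6 choroid plexus markers ranged from 39.0 to 7214 TPM. The 5 blood markers, such as Alas2 and Hbb-bs, were called higher in the ethanol and in the ethanol + stress group, with median log2 fold changes of 1.24 and 1.083. Of 18 marker lists, 12 had no called gene in any of 6 contrasts, in which 0.461% to 1.12% of all genes were called. Outside blood, C1ql2, a granule neuron gene, was called lower for the ethanol main effect. Fos, an activity-induced gene, was called lower for the stress main effect. Iyd, a CA3 gene, was called higher in ethanol + stress mice, and Tmem119, a microglial gene, higher for the interaction of both.

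Several members make receptors that differ by 1 exon or by their last stretch, and the isoform results rest on these sequences. They were read from the GENCODE vM21 transcripts on GRCm38. Grm5-204 encodes the longer receptor mGlu5b, with 1203 codons, and Grm5-202 the shorter mGlu5a, with 1171. They differ by a coding exon of 96 bases at chr7:88116193-88116288 on the plus strand, in capitals in the first line. The second line shows the direct join in Grm5-202, where capitals mark the downstream exon.
Grm5-204: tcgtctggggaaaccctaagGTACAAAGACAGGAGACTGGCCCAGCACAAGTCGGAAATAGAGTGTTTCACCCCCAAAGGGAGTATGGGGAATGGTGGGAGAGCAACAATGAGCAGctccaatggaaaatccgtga
Grm5-202: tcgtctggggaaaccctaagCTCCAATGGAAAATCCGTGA

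Grm7-202 encodes mGlu7a, with 915 codons, and Grm7-201 encodes mGlu7b, with 922. An extra exon of 92 bases in Grm7-201 gives it another end, and capitals mark the coding end of each isoform with its stop codon. The end of Grm7-201 lies at chr6:111501510-111501580 and that of Grm7-202 at chr6:111566018-111566067, both on the plus strand.
Grm7-201: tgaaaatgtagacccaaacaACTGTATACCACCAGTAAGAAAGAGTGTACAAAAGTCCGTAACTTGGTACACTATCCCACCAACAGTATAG
Grm7-202: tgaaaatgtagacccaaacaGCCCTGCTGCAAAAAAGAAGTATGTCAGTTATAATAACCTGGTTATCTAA

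Grm8-201 and Grm8-202 both have 908 codons and part ways only at the end of the coding sequence, again in capitals with the stop codon. Grm8-202 uses 55 more exon bases, and Grm8-203 shares its coding end. The end of Grm8-201 lies at chr6:27275645-27275694 and that of Grm8-202 at chr6:27285685-27285734, both on the minus strand.
Grm8-201: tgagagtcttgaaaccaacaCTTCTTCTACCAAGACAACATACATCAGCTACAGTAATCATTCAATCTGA
Grm8-202: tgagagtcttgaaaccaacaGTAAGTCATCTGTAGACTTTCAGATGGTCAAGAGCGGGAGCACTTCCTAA

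Grm4-208 is annotated as a target of nonsense-mediated decay, the pathway that removes RNA with an early stop codon. It skips a coding exon of 217 bases at chr17:27472908-27473124 on the minus strand, a length that leaves a remainder of 1 after division by 3, and its coding sequence ends after 181 codons against 912 in Grm4-201 and Grm4-205. The first line shows that exon in capitals as it stands in Grm4-205, and the second the join in Grm4-208, where capitals mark the downstream exon.
Grm4-205: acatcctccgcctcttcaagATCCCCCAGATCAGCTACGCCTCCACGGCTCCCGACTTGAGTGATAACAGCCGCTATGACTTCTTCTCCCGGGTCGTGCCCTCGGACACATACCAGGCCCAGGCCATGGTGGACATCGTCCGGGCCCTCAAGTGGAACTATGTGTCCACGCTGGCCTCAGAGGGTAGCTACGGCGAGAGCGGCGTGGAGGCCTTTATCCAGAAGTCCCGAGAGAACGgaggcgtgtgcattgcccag
Grm4-208: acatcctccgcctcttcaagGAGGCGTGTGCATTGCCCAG

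Grm2-203 lacks 834 bases of the coding sequence of Grm2-201, at chr9:106647271-106648104 on the minus strand, and so has 594 codons in place of 872. The missing stretch begins with GT and ends with AG, the letters that usually bound an intron. Capitals mark the part after the join.
Grm2-203: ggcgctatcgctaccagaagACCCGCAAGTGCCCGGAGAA

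The receptor genes spanned a wide range of levels. Grm5 had the highest summed level, with a mean of 159 TPM over the 12 libraries. Grm3 followed with 62.5, Grm7 with 39.7, Grm2 with 14.7, Grm8 with 6.82 and Grm4 with 5.21 TPM. Each neighbour in this order stood above the next in 12 of 12 libraries, except that Grm8 was above Grm4 in 10 of 12. Grm3 exceeded Grm7 by a ratio of 1.65 at the median but of only 1.01 in the closest library. The spread over the 12 libraries, as standard deviation over mean, was smallest for Grm3 at 9.89% and Grm7 at 10.7%, and largest for Grm8 at 22.9% and Grm2 at 20.9%. The depth behind these levels differed as well, with 4799 to 8826 read pairs per library for Grm5, 1214 to 1660 for Grm3, 703 to 1331 for Grm7, 280 to 678 for Grm2, 113 to 256.4 for Grm8 and 98.9 to 225 for Grm4.

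**Figure D1:**
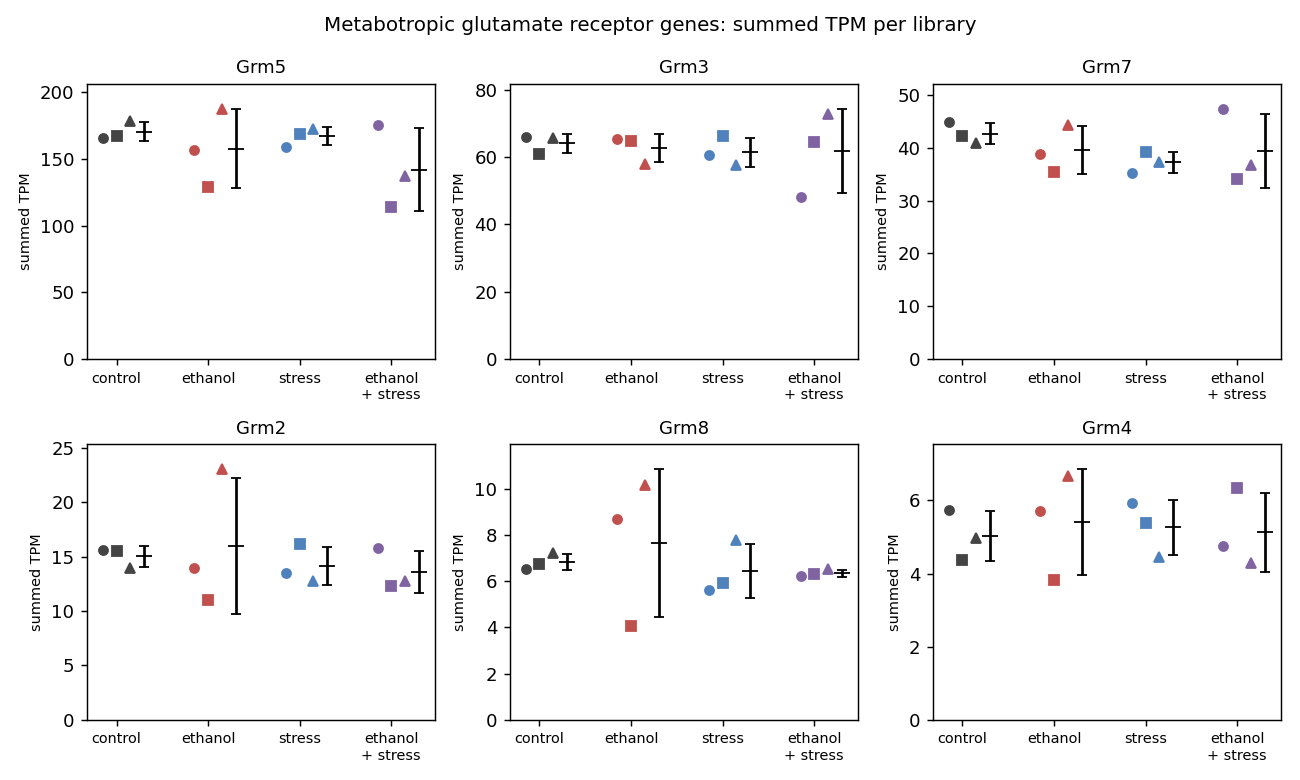
Summed TPM of each receptor gene (vertical axis, from 0) in the 3 mice of each group (horizontal axis), with circles, squares and triangles for replicates 1, 2 and 3 and black bars for the mean ± SD. Grm5 was at 113.5 TPM in ES2 and at 187.5 TPM in EC3, and the treated groups overlap the control group except for Grm7 in stress mice and Grm8 in ethanol + stress mice.

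No member gene rose or fell by the call rule in any contrast, where a call is an unadjusted p under 0.01 in limma, the threshold used by the study. Of the 6 gene sums tested, 0 were called for ethanol against control (0.679% of all genes were called), 0 for stress against control (0.51%) and 0 for ethanol + stress against control (0.972%). The ethanol main effect (1.12%), the stress main effect (0.586%) and the interaction of both (0.461%) likewise gave 0 of 6. In none of these contrasts did a member reach an unadjusted p under 0.05 in limma, and with voom on estimated read pairs 0 members were called as well. The median log2 fold change of the 6 members was -0.01 for ethanol, -0.08 for stress and -0.11 for ethanol + stress, beside 0.02, 0.00 and 0.02 over all 18419 genes tested. Since all 3 treatments were compared with the same control mice, these values are not independent of each other. In whole tissue, fewer cells of a type and less RNA per cell cannot be told apart.

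**Figure D2:**
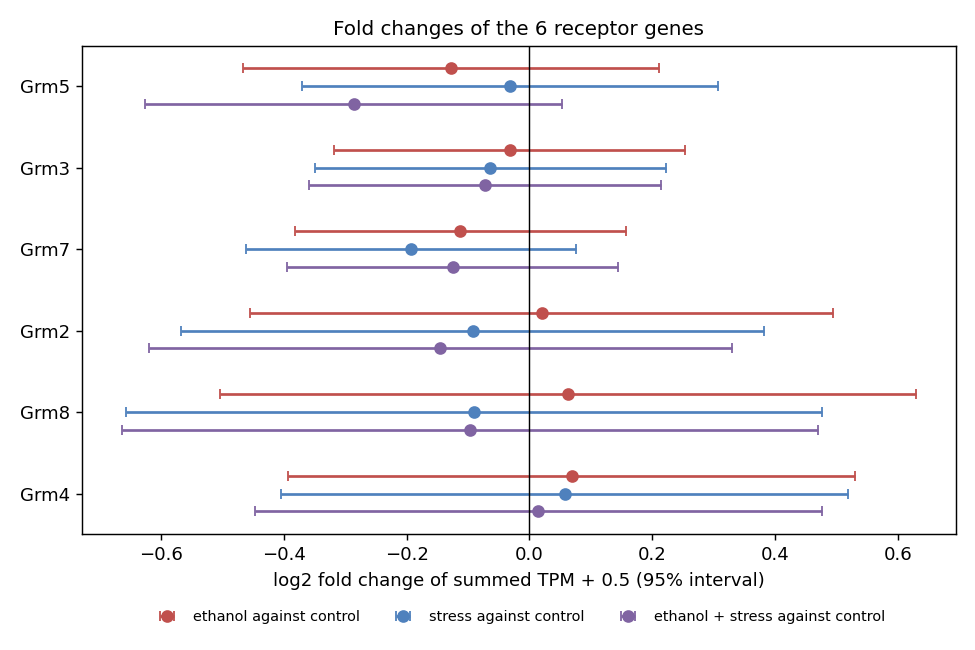
Log2 fold change of summed TPM + 0.5 against control (horizontal axis) for each receptor gene (vertical axis), with points for the limma estimate and lines for its 95% interval, n = 3 mice per group. All intervals include 0, and the estimate farthest from 0 is that of Grm5 in ethanol + stress mice, at -0.29.

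Grm5 (ENSMUSG00000049583.15, chr7:87584168-88134907, plus strand) is the group I member. Its summed level was 165.3, 167.2 and 178.6 TPM in control mice, 156.5, 129.0 and 187.5 TPM in ethanol mice, 159.2, 168.9 and 172.1 TPM in stress mice and 175.2, 113.5 and 136.8 TPM in ethanol + stress mice. The control and stress libraries lay close together, while EC2, ES2 and ES3 stood below all others and EC3 stood above all others. Against control, the log2 fold change was -0.29 ± 0.16 (SE) in ethanol + stress mice, with a 95% interval of -0.62 to 0.05 (limma adjusted p = 0.791). This was the largest change of any member against control. It was -0.13 ± 0.16 in ethanol mice (adjusted p = 0.996) and -0.03 ± 0.16 in stress mice (adjusted p = 0.9998), and the ethanol main effect was -0.19 ± 0.11 (adjusted p = 0.759).

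The Grm5 value in ethanol + stress mice turned on single libraries. Without ES1, the only library of its group within the control range, the log2 fold change was -0.45 and was called (limma adjusted p = 0.237). Without ES2, the library with the lowest Grm5 level, it was -0.14 and was not called. Without EC2, ES2 and ES3, the 3 libraries with the lowest Grm5 levels, it was 0.04. That value was raised by the choice itself, so it is no support for a dependence on these libraries. It compares ES1 alone with the control mice and takes its spread from the other groups. In those 3 libraries other lists stood apart too. Grm5 ran from 113.5 to 136.8 TPM there and from 156.5 to 187.5 TPM in the other 9. The summed level of 7 astrocyte markers was 2682 to 2718 TPM against 1751 to 2224 TPM, that of 5 blood markers 3977 to 6815 against 1603 to 3472 TPM, and that of 5 CA1 pyramidal cell markers 188.3 to 205.7 against 209.6 to 272.8 TPM. The 5 CA3 pyramidal cell markers stood higher there, at 180.7 to 198.5 against 134.6 to 168.7 TPM, and the 10 hippocampal neuron markers overlapped, at 439.7 to 465.7 and 436.5 to 511.8 TPM. None of the members of these lists was at 0 in any library, and their part in the Grm5 values was not tested.

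The Grm5 RNA was a mixture of forms in every library. Grm5-202 (mGlu5a) held 49.8% of the summed TPM, Grm5-204 (mGlu5b) 25.4% and Grm5-205 21.2%. Grm5-205 is a processed transcript of 551 bases at the start of the gene, without a coding sequence, and its 21.8 to 40.3 TPM rested on 67.4 to 131 read pairs. Of the sum of Grm5-202 and Grm5-204, the form with the 96-base exon averaged 33.2 ± 2.05% in control mice and 35.2 ± 1.36% in ethanol mice (mean ± SD, n = 3). The mean was 34.0 ± 3.8% in stress mice and 32.6 ± 3.19% in ethanol + stress mice. Over all 12 libraries this share stayed between 29.5% and 37.6%, the narrowest range of the splice ratios examined, and 124 of the 4470 stretches of 31 bases in Grm5-204 are found in no other annotated transcript. The share of summed TPM held by Grm5-202 was 51.2 ± 3.02% in control mice and 47.2 ± 0.49% in ethanol mice, a difference of -3.98 percentage points (two-sided exact permutation test, p = 0.1, adjusted p = 0.9 over 15 tests). The smallest p that 3 against 3 mice allow is 0.1.

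**Figure D3:**
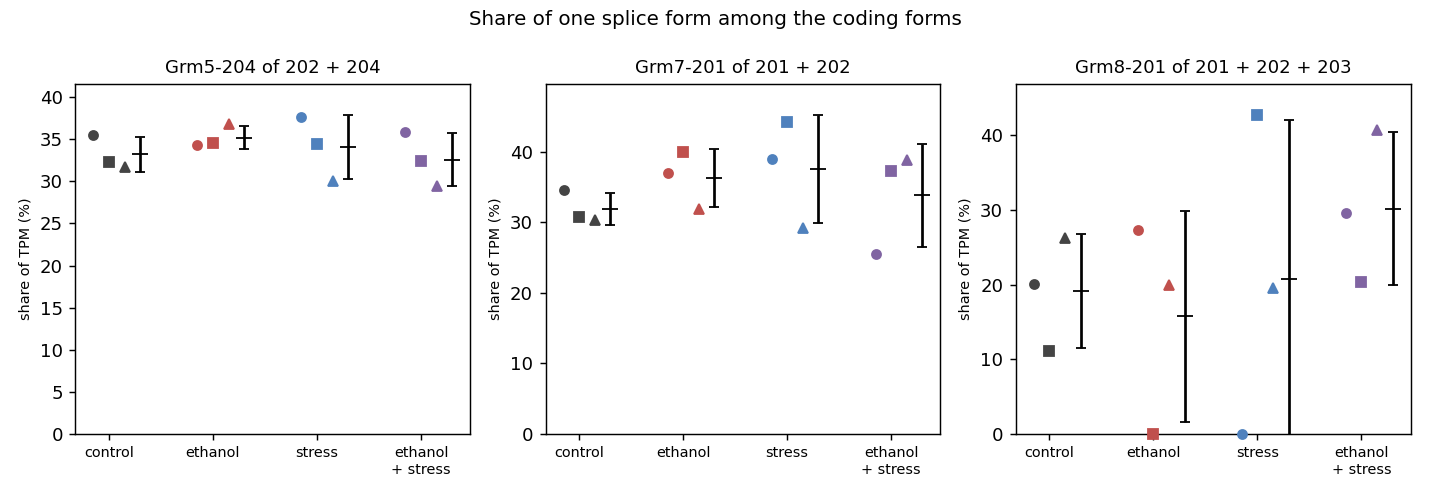
Share of 1 splice form in the TPM of the coding forms named in each title (vertical axis, %) for the 3 mice of each group (horizontal axis), with circles, squares and triangles for replicates 1, 2 and 3 and black bars for the mean ± SD. The Grm5 exon was included at 29.5% to 37.6% in all 12 libraries, whereas the share of Grm8-201 ran from 0% to 42.7%.

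Among group II members, Grm3 (ENSMUSG00000003974.6, chr5:9485541-9725170, minus strand) has a single annotated isoform, so its level needs no division between transcripts. It was 65.9, 60.8 and 65.7 TPM in control mice, 65.5, 64.9 and 57.9 TPM in ethanol mice, 60.5, 66.2 and 57.5 TPM in stress mice and 48.1, 64.5 and 72.8 TPM in ethanol + stress mice. The lowest and the highest of the 12 values, ES1 and ES3, came from the same group. The log2 fold changes were -0.03 ± 0.13, -0.06 ± 0.13 and -0.07 ± 0.13 (SE) for ethanol, stress and ethanol + stress, with adjusted p values of 0.999, 0.9998 and 0.887 in limma. With EC2, ES2 and ES3 left out, the ethanol + stress value was -0.41 and was called, but it then rested on ES1 alone, the library with the lowest Grm3 level, with the spread taken from the other groups.

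Grm2 (ENSMUSG00000023192.12, chr9:106643095-106656082, minus strand), a presynaptic receptor of granule cell axons, was measured at 15.6, 15.5 and 13.9 TPM in control mice and at 13.9, 10.97 and 23.0 TPM in ethanol mice. Stress mice had 13.5, 16.1 and 12.8 TPM and ethanol + stress mice 15.8, 12.3 and 12.7 TPM. The lowest and the highest libraries, EC2 and EC3, were both from the ethanol group, and the SD of that group was 6.28 TPM against 0.96 TPM in controls. The log2 fold changes were 0.02 ± 0.22 for ethanol, -0.09 ± 0.22 for stress and -0.14 ± 0.22 for ethanol + stress (SE), with adjusted p values of 0.999, 0.9998 and 0.865 in limma. EC2, ES2 and ES3 were the 3 lowest libraries for Grm2, at 10.97 to 12.7 TPM, where the rest had 12.8 to 23.0 TPM.

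Of the Grm2 isoforms, the full-length Grm2-201 held 55.9% and the shorter Grm2-203 39.8% of the summed TPM. Grm2-203 was 31.4% to 46.0% of the sum of both, although only 29 of its stretches of 31 bases are its own. Its levels were 6.73, 6.51 and 5.53 TPM in control mice and 4.68, 5.28 and 4.63 TPM in ethanol + stress mice, which do not overlap (10.2% of all transcripts did not, in either direction), but the isoform was not called. Grm2-204, a processed transcript of 448 bases, was called higher for the ethanol main effect, with a log2 fold change of 0.99 ± 0.32 (limma adjusted p = 0.672). It was listed at 0 in 6 libraries and reached at most 2.80 read pairs. All 12 values thus lay within the limit of 3 read pairs that a count of 0 allows. It passed the filter only through CC2, EC1, EC3, ES1, ES2 and ES3, all but CC2 from ethanol-exposed mice. Its call was therefore partly built in by the filter.

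Group III was led by Grm7 (ENSMUSG00000056755.13, chr6:110645581-111567230, plus strand), a receptor of the presynaptic active zone with a low affinity for glutamate. Its level was 44.9, 42.2 and 40.9 TPM in control mice, 38.8, 35.5 and 44.4 TPM in ethanol mice, 35.3, 39.2 and 37.3 TPM in stress mice and 47.4, 34.1 and 36.8 TPM in ethanol + stress mice. Every stress library lay below every control library, and 7.2% of all genes showed no overlap between these groups in either direction. The log2 fold change in stress mice was -0.19 ± 0.12 (SE), with a 95% interval of -0.46 to 0.08 (limma adjusted p = 0.9998), and it stayed between -0.23 and -0.14 under all 27 other settings, none of which called it. In ethanol mice it was -0.11 ± 0.12 (adjusted p = 0.996) and in ethanol + stress mice -0.12 ± 0.12 (adjusted p = 0.807). These moved more without each library in turn, from -0.20 to -0.04 in ethanol mice and from -0.26 to -0.03 in ethanol + stress mice.

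Grm7-202 (mGlu7a) held 52.1% and Grm7-201 (mGlu7b) 27.5% of the Grm7 TPM. The share of mGlu7b in the sum of the pair was 31.9 ± 2.31% in control mice and 37.5 ± 7.66% in stress mice (mean ± SD, n = 3). With ethanol it was 36.3 ± 4.1%, with ethanol + stress 33.8 ± 7.30%, and the range over the 12 libraries was 25.5% to 44.3%. Only 29 stretches of 31 bases are found in Grm7-201 alone. Grm7-203 and Grm7-205, short transcripts of 418 and 386 bases at the end of the gene, held 8.96% and 8.86% of the TPM on 3.41 to 11.1 and 2.25 to 8.96 read pairs. The TPM of such short forms are large for their few reads. Gm20387 lies antisense to exons of Grm7 and Gm28111 to exons of Grm2, and since the strand setting of the kallisto run is not given in the sources used here, their reads could not be set apart.

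Grm8 (ENSMUSG00000024211.15, chr6:27275119-28135178, minus strand), a presynaptic receptor of entorhinal afferents, was measured at 6.53, 6.74 and 7.22 TPM in control mice. Ethanol mice had 8.70, 4.05 and 10.2 TPM, stress mice 5.63, 5.91 and 7.80 TPM and ethanol + stress mice 6.23, 6.32 and 6.51 TPM. The ethanol group again held both the lowest library, EC2, and the highest, EC3. Every ethanol + stress library lay just below every control library, a lack of overlap that 10.3% of all genes showed in either direction, but the log2 fold change was only -0.10 ± 0.26 (SE; limma adjusted p = 0.929). It was 0.06 ± 0.26 for ethanol (adjusted p = 0.999) and -0.09 ± 0.26 for stress (adjusted p = 0.9998). Between ethanol and control mice, 0 of the 6 members showed no overlap, beside 8.26% of all genes.

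The coding ends of Grm8 could not be measured as firmly. Grm8-202 held 56.3%, Grm8-201 20.1% and Grm8-203 13.5% of the TPM. Grm8-201 was 20.1%, 11.1% and 26.3% of the sum of these forms in control mice, 27.4%, 0% and 19.9% in ethanol mice, 0%, 42.7% and 19.6% in stress mice and 29.6%, 20.3% and 40.7% in ethanol + stress mice. These shares overlapped between all groups, and the 0 values of EC2 and CS1 stood beside 14.1 to 53.6 read pairs for this form in the other 10 libraries. Grm8-203 has no stretch of 31 bases of its own, so that kallisto divides its reads from those of Grm8-201 and Grm8-202 by estimate alone.

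**Figure D4:**
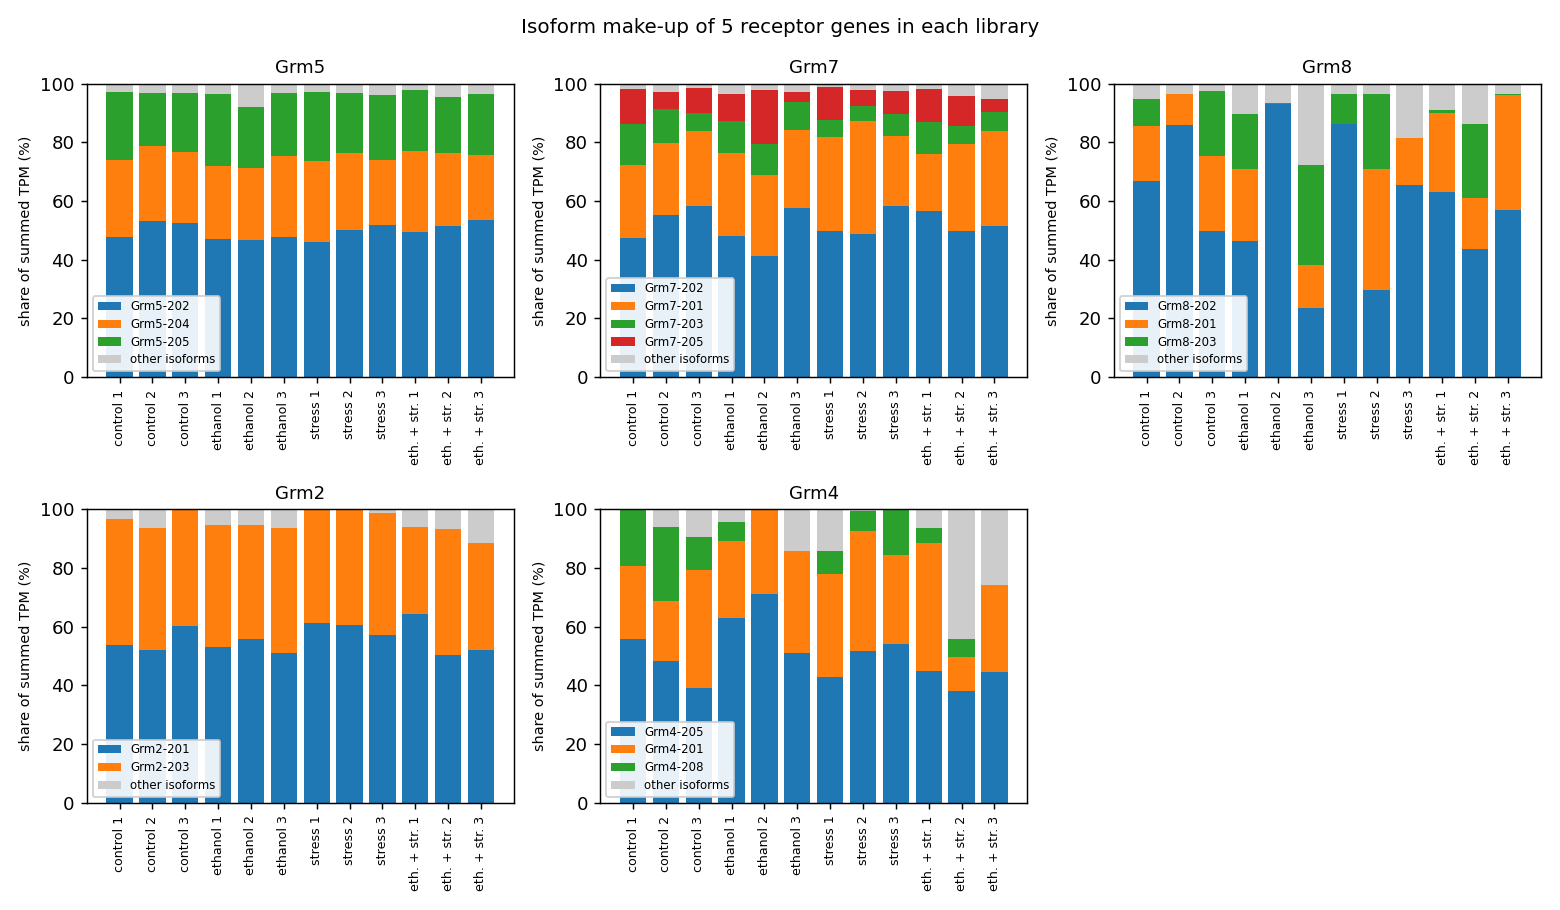
Share of each isoform in the summed TPM of its gene (vertical axis, %) in each library (horizontal axis), for the 5 genes with several isoforms and for isoforms at 5% or more, with the rest in grey. The shares of Grm5 stay nearly level across the 12 libraries, and those of Grm8 and Grm4, the members with the fewest reads, move widely.

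Grm4 (ENSMUSG00000063239.17, chr17:27422387-27521403, minus strand), best known from cerebellar granule cells, had the lowest level. It was 5.74, 4.38 and 4.98 TPM in control mice, 5.71, 3.83 and 6.67 TPM in ethanol mice, 5.94, 5.39 and 4.46 TPM in stress mice and 4.75, 6.35 and 4.28 TPM in ethanol + stress mice. The groups overlapped, and the log2 fold changes were 0.07 ± 0.21, 0.06 ± 0.21 and 0.01 ± 0.21 (SE) for ethanol, stress and ethanol + stress, with adjusted p values of 0.996, 0.9998 and 0.991 in limma.

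Beneath these gene sums, 1 isoform of Grm4 was called lower after ethanol. Grm4-208, the form that skips the exon of 217 bases, had 1.12, 1.104 and 0.561 TPM in control mice, while ethanol mice showed 0.364, 0 and 0 TPM. It was at 0.461, 0.37 and 0.696 TPM in stress mice and at 0.245, 0.389 and 0 TPM in ethanol + stress mice. All ethanol and all ethanol + stress values lay below all control values, while the stress values overlapped them. Between these groups 1 and 3 of 23 member isoforms did not overlap (10.2% of all transcripts in both comparisons), and between stress and control mice 0 of 23 (8.23%). In the isoform test 1 of the 23 member isoforms that passed the filter was called for ethanol against control (1.25% of all transcripts were called, 0.362% as lower), 0 for stress (0.918%, and 0 members had an unadjusted p under 0.05) and 1 for ethanol + stress (1.22%, 0.45% as lower), each time Grm4-208. The filter left out 9 of the 32 isoforms, 2 of them at 0 in all libraries.

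The log2 fold change of Grm4-208, on the scale of TPM + 0.5, was -1.22 ± 0.31 (SE) in ethanol mice (limma adjusted p = 0.655) and -1.02 ± 0.31 in ethanol + stress mice (adjusted p = 0.811). In stress mice it was -0.49 ± 0.31 and was not called (limma adjusted p = 1). The ethanol main effect was -0.88 ± 0.22 (limma adjusted p = 0.563), and 2 of 23 isoforms were called for it (1.47% of all transcripts, 0.432% as lower), this one and Grm2-204. With 3 libraries at 0, the size of the change depended on the setting and ran from -4.01 to -0.78 in ethanol mice, from -2.72 to -0.67 in ethanol + stress mice and from -2.97 to -0.55 for the ethanol main effect, with voom the farthest from 0. The summed level of the 5 blood markers, none of them at 0 in any library, lay above the control range in every treated library, at 1603 to 2022 TPM in control mice, 3146 to 6815 TPM in ethanol mice, 2593 to 3392 TPM in stress mice and 2454 to 6480 TPM in ethanol + stress mice. Its part in the Grm4-208 values was not tested. The interaction was 0.69 ± 0.44 and was not called (limma adjusted p = 0.99997), so a difference of the ethanol effect with and without stress was not shown. For the interaction, 0 of 23 were called (0.862% of all transcripts, and 0 members had an unadjusted p under 0.05), and for the stress main effect 0 of 23 (0.936%), where 1 member isoform had an unadjusted p under 0.05 in limma.

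Grm4-208 rested on few reads, with at most 25.6 read pairs, in CC1, and a median of 9.33, and 3 libraries were at 0, where the floor is 3 read pairs. Of its stretches of 31 bases 41 are its own, whereas Grm4-205 has none, so that the split between the Grm4 forms leans on the estimate of kallisto. The call in ethanol mice was lost without CC1, EC2 or EC3, with log2 fold changes of -1.12, -1.09 and -1.09. That in ethanol + stress mice was lost without CC1, CC2, CS1, CS2, EC2, EC3, ES1 or ES3, with values of -1.07 to -0.78, and with EC2, ES2 and ES3 left out together, with a value of -0.91. As a share of the sum of Grm4-201, Grm4-205 and Grm4-208 it was 19.5%, 26.9% and 12.4% in control mice, 6.67%, 0% and 0% in ethanol mice, 9.04%, 6.89% and 15.6% in stress mice and 5.50%, 10.95% and 0% in ethanol + stress mice.

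The forms of Grm4 that encode the whole receptor overlapped between control mice and each treated group. Grm4-205, with 49.95% of the summed TPM, averaged 2.42 ± 0.68 TPM (SD, n = 3) in control mice and 3.24 ± 0.46 TPM in ethanol mice. Grm4-201, with 30.4%, averaged 1.44 ± 0.55 and 1.64 ± 0.63 TPM in these groups. Neither isoform was called in any of the 6 contrasts. The share of summed TPM held by Grm4-205 was 47.8% in control and 61.8% in ethanol mice, a difference of 14.0 percentage points (two-sided exact permutation test, p = 0.2, adjusted p = 0.9). In all, 15 such tests of the leading isoforms of 5 genes gave adjusted p values of 0.9.

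**Figure D5:**
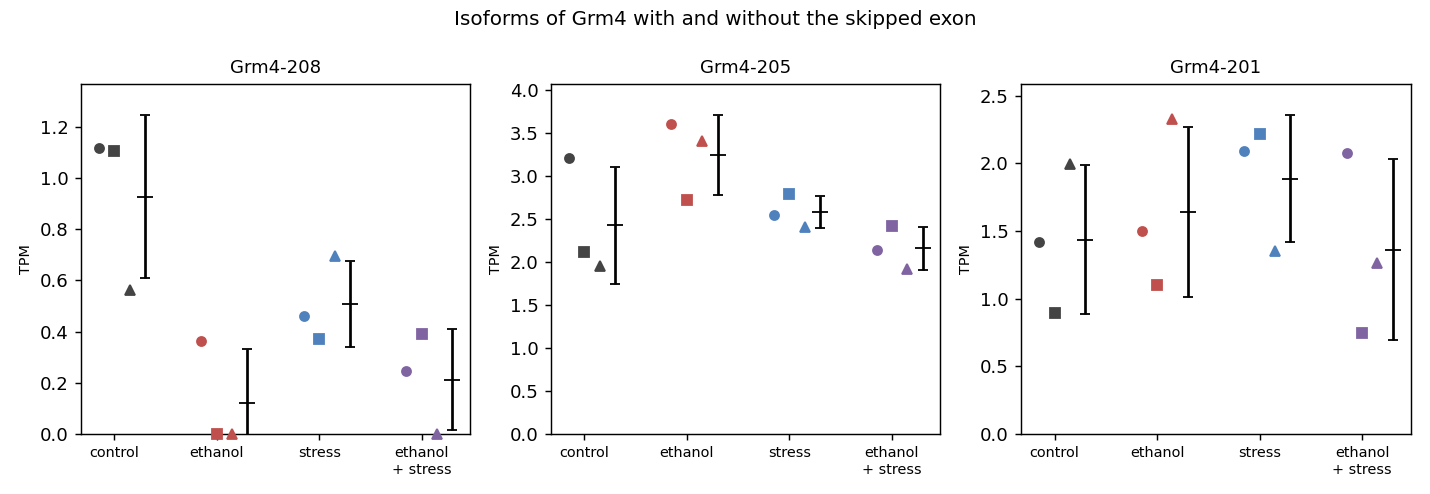
TPM of 3 Grm4 isoforms (vertical axis, from 0) in the 3 mice of each group (horizontal axis), with circles, squares and triangles for replicates 1, 2 and 3 and black bars for the mean ± SD. Grm4-208, which skips the exon, was at 0.561 TPM or more in control mice and at 0.389 TPM or less in ethanol and ethanol + stress mice, while Grm4-205 and Grm4-201 overlapped between control mice and each treated group.

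Over the 12 libraries, on the scale of log2(TPM + 0.5), the Pearson correlation of Grm2 with Grm7 was 0.74, of Grm5 with Grm7 0.73 and of Grm2 with Grm5 0.70. Grm3 ran against these 3, with -0.36 for Grm2, -0.46 for Grm5 and -0.52 for Grm7, and Grm4 was near 0.12 with Grm5 and 0.10 with Grm7. All values of a library share its scaling and make-up, so these are descriptions. Among 14387 genes with a mean of 1 TPM or more, the profiles most like that of Grm5 over the 12 libraries were those of Magee1 (0.992), Tmx4 (0.987) and Gda (0.984). For Grm3 they were Kcnj16, an inward rectifier potassium channel (0.901), Gm48827 (0.869) and 2210408I21Rik (0.866), for Grm7 Sema3g (0.925), Trio (0.924) and Arhgap26 (0.912), for Grm2 Mta3 (0.938), Lpin2 (0.928) and 4930452B06Rik (0.924), for Grm8 St3gal1 (0.894), C1qtnf1 (0.893) and the adenylyl cyclase Adcy8 (0.893), and for Grm4 Fhdc1 (0.881), Mob2 (0.844) and Zfp236 (0.843).

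No pathway gene was called either. Of 56 genes in 5 lists, 55 were tested and 0 were called in any of the 6 contrasts, in which 0.461% to 1.12% of all genes were called, with median log2 fold changes of -0.02 for ethanol, -0.01 for stress and -0.04 for ethanol + stress. At an unadjusted p under 0.05 in limma there was 1 gene for ethanol (671 of all 18419 genes), 0 for stress (442), 3 for ethanol + stress (991), 1 for the ethanol main effect (1068) and 0 for the other contrasts. Grm6, the receptor of retinal bipolar cells, was at 0.08 TPM or less and was not tested. The signalling lists held 8 genes of Gq signalling, such as Plcb1 and Itpr1, 15 of Gi/o and cyclic AMP signalling, such as Gnao1 and Kcnj3, 23 binding partners and regulators, such as Homer1, Pick1 and Elfn1, and 8 of glutamate release and uptake, such as Slc17a7 and Slc1a2. Dgkz, a kinase that removes diacylglycerol, had the lowest unadjusted p, with a log2 fold change of 0.14 ± 0.05 for the ethanol main effect (limma adjusted p = 0.759), and it is named for that reason after its value was seen.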

How the data were processed

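Hippocampal RNA of 12 mice was sequenced as stranded, rRNA-depleted libraries. The deposited values are a signal: TPM per transcript that the authors estimated with kallisto against the Ensembl mouse transcriptome (GRCm38, mm10 per the labels) and scaled between libraries with sleuth. CASAVA is also named in the submitters' notes, and versions are not given in the sources used here. GENCODE vM21 holds the identifiers of 113492 of the 115270 transcripts, and 22618 are 0 in all libraries.

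Transcripts were summed per gene. The 18419 genes and 59050 transcripts with no less than 0.1 TPM in 6 or more libraries were tested on the scale of log2(TPM + 0.5), by limma 3.58.1 (R 4.3.3) with a trended eBayes, 4 groups and two-sided p values. An unadjusted p under 0.01 counts as a call, and Benjamini-Hochberg adjustment ran over everything tested. A step worth 1 read pair was recovered for each library, by which 78.9% to 83.7% of low values came out whole within 0.1. Read pairs derived from it serve for depth and for voom, and their intervals and floors cover counting error only. Shares of leading isoforms were compared by exact permutation tests with scipy 1.17.1. In simulated data for the ethanol comparison (18419 genes), a log2 change of 1 was called in 93% and of 2 in 100% of the genes that carried it, and 1.14% of unchanged genes were called. For 59050 transcripts these shares were 83%, 96% and 1.07%. The shares for changes of 1 and 2 were not split by level. They therefore do not show how often such a change would be called in genes or isoforms of low TPM.

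The members and lists were chosen with earlier results of these data known. Named are all members, isoforms at 5% or more of their gene's TPM or with an unadjusted p under 0.01, pathway genes with an unadjusted p under 0.01 (up to 3 per contrast), and the 3 genes with the highest correlation with each member. Alternatives were pseudocounts of 0.1 and 1, other filters, 3 other scalings, eBayes without trend, only the groups compared, voom, a replicate block and leaving out each library. Chosen after seeing the data were protein-coding transcripts only, removal of the trend over transcript length, and leaving out EC2, ES2 and ES3.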

Additional observations from a re-analysis of the deposited data

How the results depend on the processing

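Depth, 3 mice a group and the scaling of the values limit what could be seen. Intervals of about 0.3 to 0.6 either side of the log2 fold changes against control leave room for modest changes in every member. The splits between isoforms that share nearly all their sequence rest on the estimate of kallisto. Fold changes near 0 changed sign easily, and the cause was not tested for any change below. Rescaling all libraries to a common total moved the median log2 fold change over all genes in ethanol + stress mice from 0.02 to -0.09, and the share of called genes that were higher from 128 of 179 to 54 of 118 (45.8%). Relative to that median Grm5 was at -0.31 before and -0.33 after, and Grm7 in stress mice at -0.20 under both.

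With EC2, ES2 and ES3 left out, 1 member gene (Grm3) was called in ethanol + stress mice, where ES1, its lowest library, then stood alone and the spread came from the other groups. Of the isoform calls, that in ethanol mice fell to 0 with EC2, ES2 and ES3 left out, where Grm4-208 was at -1.09. That in ethanol + stress mice fell to 0 with a mean of 0.1 TPM as the filter, no filter and only the groups compared, where the log2 fold change of Grm4-208 stayed at -1.02, and with a pseudocount of 0.1 (-1.95) and voom (-2.72). A minimum of 1 TPM gave 0 in both comparisons because it removed Grm4-208 before the test. In ethanol + stress mice with EC2, ES2 and ES3 left out, Grm4-208 also lost its call (-0.91) and Grm3-201 was called in its place. The lowest adjusted p of Grm4-208 over all settings was 0.554 in ethanol mice, 0.442 in ethanol + stress mice and 0.426 for the ethanol main effect. For the ethanol main effect, Grm4-208 was called in all 12 fits without 1 library, but not with EC2, ES2 and ES3 left out (-0.76), while Grm2-204 lost its call under most settings.

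Signs of log2 fold changes turned under these settings. Under rescaling to a common total they became, in ethanol mice, -0.058 for Grm2, -0.0015 for Grm4 and -0.0091 for Grm8, in ethanol + stress mice -0.11 for Grm4, for the ethanol main effect -0.076 for Grm4 and -0.062 for Grm8, for the stress main effect -0.032 for Grm4, and for the interaction -0.013 for Grm3. With the 20 highest transcripts removed they became -0.025 for Grm2 in ethanol mice, -0.058 for Grm4 in ethanol + stress mice, -0.035 for Grm4 and -0.021 for Grm8 for the ethanol main effect, and -0.023 for Grm4 for the stress main effect. With voom they became -0.029 for Grm8 in ethanol mice, -0.25 for Grm4 in ethanol + stress mice, -0.10 for Grm4 and -0.036 for Grm8 for the ethanol main effect, and -0.15 for Grm4 for the stress main effect. With protein-coding transcripts only, Grm2 was at -0.00054 in ethanol mice and Grm4 at -0.13 in ethanol + stress mice and at -0.14 for the stress main effect. With EC2, ES2 and ES3 left out, Grm5 was at 0.0085 in ethanol mice, and Grm2 at 0.073, Grm4 at -0.068, Grm5 at 0.041 and Grm7 at 0.15 in ethanol + stress mice. The same setting put Grm2 at 0.21, Grm5 at 0.040 and Grm7 at 0.15 for the ethanol main effect. It put Grm4 at -0.14 and Grm5 at 0.00035 for the stress main effect. For the interaction it put Grm3 at -0.29 and Grm5 at 0.063. EC2, ES2 and ES3 were the lowest libraries for Grm2 and Grm5. For both genes the rise in ethanol and ethanol + stress mice therefore followed from the choice.

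Without each library in turn, the genes called in ethanol + stress mice ran from 0 to 1 (Grm5, without ES1), and the isoforms called from 0 to 1 in ethanol, in stress (Grm7-203, without CC3) and in ethanol + stress mice. In the last group the called isoform was Grm4-208 in 4 of 12 fits, Grm2-204 without CC2 and Grm5-204 without ES1. For the stress main effect Grm7-203 was called without CC3 and without ES1. In ethanol mice log2 fold changes ran from -0.27 to 0.25 for Grm2, -0.070 to 0.024 for Grm3, -0.087 to 0.28 for Grm4, -0.26 to 0.0085 for Grm5 and -0.18 to 0.44 for Grm8. In stress mice they ran from -0.030 to 0.16 for Grm4 and -0.055 to 0.0030 for Grm5, and in ethanol + stress mice from -0.20 to 0.10 for Grm3, -0.14 to 0.12 for Grm4 and -0.45 to -0.14 for Grm5. For the ethanol main effect they ran from -0.16 to 0.10 for Grm2, -0.085 to 0.064 for Grm3, -0.065 to 0.12 for Grm4, -0.27 to -0.12 for Grm5, -0.092 to 0.026 for Grm7 and -0.093 to 0.22 for Grm8. For the stress main effect they ran from -0.24 to 0.016 for Grm2, -0.12 to 0.033 for Grm3 and -0.10 to 0.080 for Grm4, and for the interaction from -0.30 to 0.22 for Grm2, -0.10 to 0.19 for Grm3, -0.32 to 0.044 for Grm4, -0.29 to 0.021 for Grm5 and -0.44 to 0.17 for Grm8. Differences in the share of the leading isoform ran, in percentage points, from -3.79 to 0.432 for Grm2-201, -32.4 to 2.32 for Grm8-202 and 9.29 to 19.3 for Grm4-205 in ethanol mice, from -2.51 to 5.79 for Grm4-205, -4.57 to 0.947 for Grm7-202 and -19.9 to 8.45 for Grm8-202 in stress mice, and from -4.20 to 2.91 for Grm2-201, -1.37 to 1.45 for Grm5-202 and -4.17 to 1.35 for Grm7-202 in ethanol + stress mice.

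The labels do not say what a replicate number shares, and the values showed no clear pairing by it. Deviations of libraries with the same number correlated at -0.173 to 0.164, and 2 of 12 libraries matched best with their own number. The fit with a replicate block called 0 member genes in each contrast and 2 isoforms in ethanol + stress mice (691 of all 59050 transcripts were called), Grm4-208 and Grm5-207. Grm5-207 had at most 3.99 read pairs, and 7 of 12 libraries were at 3 or fewer.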
